A study of Mus musculus with 134 samples.

Results

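The comparison concerned 16 of the 134 samples in the series, which were in vitro RNA libraries tagmented at 37 °C (8 libraries) or at 16 °C (8 libraries). The libraries were chosen by their titles, with 2 libraries for each combination of temperature and reaction time (5, 10, 15 and 30 min). All 16 are labelled as untreated E14 cells (ES-E14TG2a in the study's methods), a mouse embryonic stem cell (ESC) line of 129/Ola background grown on gelatin with serum and LIF, so temperature and time were the only labelled differences. Total RNA was reverse transcribed with oligo dT, and the resulting mRNA/cDNA hybrids were cut and tagged by the Tn5 transposase. The comparison asks whether the reaction temperature changed which genes were counted, and it was described by gene classes as well as by single genes.

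Tn5 is a bacterial transposase that is loaded with short adaptors, inserts them into a double-stranded template and breaks it at the same step. The hybrids hold 1 strand of RNA and 1 of cDNA, and a fragment can be amplified only when adaptors of both kinds flank it. The adaptors are shown because every counted fragment carries them, and capitals mark the 19-base mosaic end that the enzyme binds.
Tn5ME-A: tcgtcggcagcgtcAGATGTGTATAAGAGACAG
Tn5ME-B: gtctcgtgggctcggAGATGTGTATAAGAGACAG
Tn5MErev: CTGTCTCTTATACACATCT

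Base composition is a main axis of the results below, so the first 120 coding bases of 5 genes that the results turn on are printed in the coding direction, from the NCBIM37 (mm9) mouse reference, with G and C in capitals. Ssb (chr2:69699619-69709903, plus strand) encodes the La RNA-binding protein and was among the genes with the largest rises at 37 °C, and its printed stretch held 34.2% G and C. Btbd2 (chr10:80105362-80119816, minus strand), a BTB domain protein gene, was among the largest falls, and its stretch held 80.8%. Rpl39 (chrX:34622513-34625217, minus strand), Mrpl52 (chr14:55045746-55048587, plus strand) and Uqcr11 (chr10:79865742-79869566, minus strand) encode a cytosolic ribosomal protein, a mitochondrial ribosomal protein and a respiratory complex III subunit. Rpl39 and Mrpl52 rose at 37 °C and Uqcr11 fell, with 42.5%, 66.7% and 65.8% G and C in the printed bases.
Ssb: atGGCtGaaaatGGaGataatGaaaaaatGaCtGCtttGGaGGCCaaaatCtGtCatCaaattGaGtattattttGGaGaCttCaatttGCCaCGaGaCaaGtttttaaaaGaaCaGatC
Btbd2: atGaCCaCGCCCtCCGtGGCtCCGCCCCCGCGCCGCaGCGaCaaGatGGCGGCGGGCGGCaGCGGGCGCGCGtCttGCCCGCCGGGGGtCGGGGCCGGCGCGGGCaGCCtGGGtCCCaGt
Rpl39: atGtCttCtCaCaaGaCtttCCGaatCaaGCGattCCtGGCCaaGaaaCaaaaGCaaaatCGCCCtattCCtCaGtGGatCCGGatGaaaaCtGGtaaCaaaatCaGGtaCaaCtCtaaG
Mrpl52: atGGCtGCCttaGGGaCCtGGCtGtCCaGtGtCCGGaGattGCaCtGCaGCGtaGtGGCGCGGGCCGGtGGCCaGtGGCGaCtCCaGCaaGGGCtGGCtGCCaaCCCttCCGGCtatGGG
Uqcr11: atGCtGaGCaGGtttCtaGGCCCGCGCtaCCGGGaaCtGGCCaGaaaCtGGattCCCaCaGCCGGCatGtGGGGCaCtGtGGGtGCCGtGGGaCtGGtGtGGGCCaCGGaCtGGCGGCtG

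Library totals ran from 2258725 to 15221800 fragments assigned to genes at 16 °C and from 1178008 to 10031843 at 37 °C. The 45S ribosomal RNA precursor Rn45s took 11.8% to 25.1% of these counts at 16 °C and 33.0% to 40.7% at 37 °C, and it was removed before all other values. Its share also differed with time at 16 °C, from 11.8% and 13% in the libraries of 5 min to 22.1% and 25.1% in those of 30 min. The 10 ESC markers, such as Pou5f1, Nanog and Sox2, were counted in all 16 libraries and summed to 4230 to 4828 CPM (counts scaled to the same library total, without Rn45s) at 16 °C and 4335 to 4826 at 37 °C. The 6 primitive endoderm markers summed to 4.34 to 7.56 CPM and 4.1 to 13.3 CPM, and the 7 fibroblast markers to 1.77 to 5.91 CPM and 3.36 to 6.61 CPM, with Dcn at 0 in all 16 libraries. Hprt (chrX:50341255-50374837), a purine salvage enzyme gene, had 8 counts over the 16 libraries together, out of 76417067, whereas 2 ligation-based RNA-seq libraries of the series that are also labelled E14 had 2520 and 2592 counts each. These ligation-based libraries were made with another protocol and sequencer, and whether they came from the same stock of cells was not tested. They are given below as side values without a test, and not as a measure of the protocol alone.

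The second libraries of 10, 15 and 30 min at 37 °C stood apart from the first ones. Of 8584 genes with a mean of at least 10 CPM, 8 were over 2-fold higher in the second than in the first library at each of these 3 times, among them Mir6236, Rps7, Rpl37, Gas5 and Ndufa3, and 3 were over 2-fold lower (Ppia, H3f3c and Dynlt1b). At 16 °C no gene passed 2-fold in either direction at all of these 3 times, though Mir6236 was 4.64, 2.67, 3.46 and 1.34 times higher in the second 16 °C library of 5, 10, 15 and 30 min. At 37 °C Mir6236 was 5.06, 5.06 and 5.12 times higher in the second library at the 3 times, and Rps7 was 4.07, 3.35 and 4.6 times higher. The main count of calls and several class and gene values are given below with and without these 3 libraries. The other values use all 16.

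Counts moved towards genes of lower GC content at 37 °C. The mean exon GC content of genes, weighted by their counts, was 51.8% ± 0.309 at 16 °C and 50.6% ± 0.218 at 37 °C (SD, n = 8 libraries each), a difference of -1.17 percentage points (two-sided exact permutation test within times, p = 0.001543, the smallest that 1296 arrangements allow; 0.00463 after Benjamini-Hochberg adjustment over the 3 library values tested). The 8 libraries at 16 °C lay between 51.3% and 52.1% and the 8 at 37 °C between 50.1% and 50.8%, so the groups did not overlap, and the difference at 5, 10, 15 and 30 min was -0.933, -1.18, -1.18 and -1.40 points. Genes with under 46% GC took 13.2% to 17.4% of counts at 16 °C and 20.6% to 24.8% at 37 °C, and genes with at least 58% GC took 10.6% to 12.9% and 8.59% to 10.0%. The ligation-based libraries had 49.6% and 49.7% in the weighted mean. With Rn45s kept, whose own sequence holds 64.9% G and C, the weighted mean was higher at 37 °C by 1.835 points, so the direction holds for the other genes only.

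Gene length moved little. The median length of a gene over counts was 2535 ± 35.1 bases at 16 °C and 2574 ± 33.8 bases at 37 °C (SD, n = 8 each), a difference of 39.6 bases (same exact permutation test, p = 0.00617, adjusted 0.00926), while the ligation-based libraries gave 3571 and 3596 bases. Genes under 1000 bases took 8.89% to 11.3% of counts at 16 °C, 10.7% to 13% at 37 °C and 3.6% to 3.69% in the ligation-based libraries. The values over 12% were those of the second 37 °C libraries of 10, 15 and 30 min, and the other 5 libraries at 37 °C lay between 10.7% and 11.6%, with overlap in both cases. After thinning to 754239 counts, 78.4 fewer genes were detected at 37 °C than at 16 °C on average, a difference that did not pass the test (exact permutation p = 0.0602, adjusted 0.0602).

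**Figure D1:**
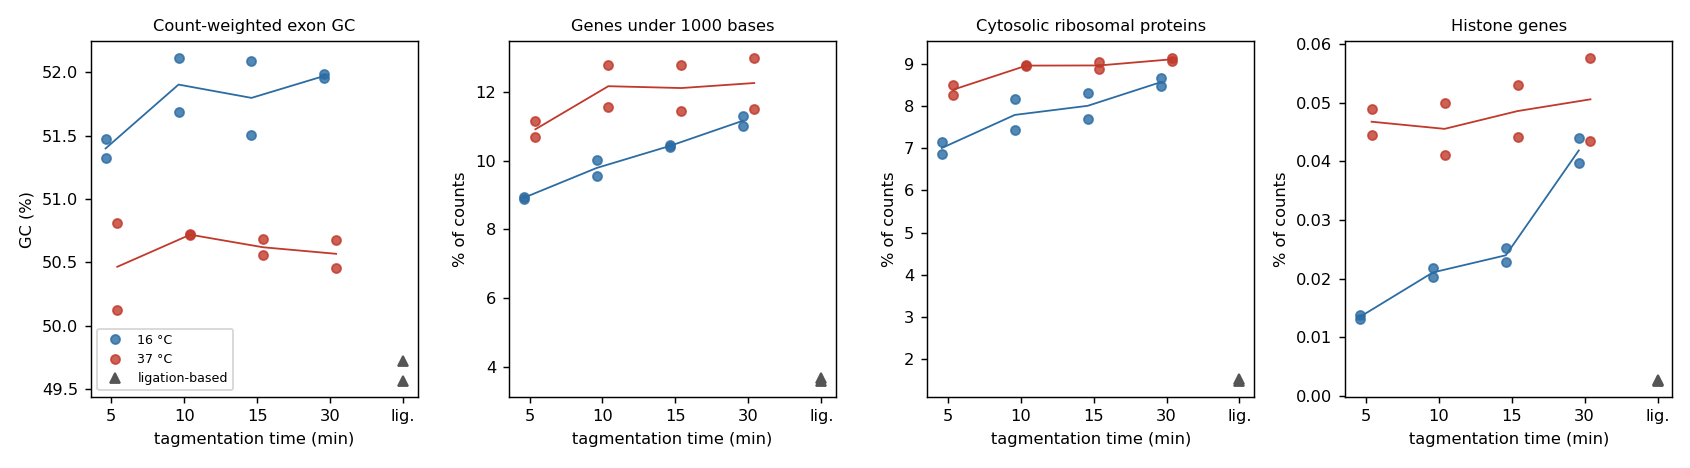
Each panel plots 1 value per library (y axes, in percent) against reaction time as evenly spaced categories, with points for the 16 °C and 37 °C libraries, lines through their means and triangles for the ligation-based libraries: the count-weighted GC content, the share of counts in genes under 1000 bases, in cytosolic ribosomal protein genes and in histone genes. The 37 °C libraries lay at 50.1% to 50.8% GC, all below the 51.3% to 52.1% of the 16 °C libraries, and the histone share at 16 °C ran from 0.0131% to 0.0440% against 0.0411% to 0.0577% at 37 °C.

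Among 11788 genes tested by a quasi-likelihood fit in edgeR that held time constant, with Benjamini-Hochberg adjustment, 3770 were higher at 37 °C (32% of all tested) and 3703 were lower (31.4%), so 63.4% passed at an adjusted p below 0.05. Most differences were small: the median absolute log2 fold change (37 °C against 16 °C) was 0.41, and 630 genes (5.34%) rose and 416 (3.53%) fell by more than 1 on the log2 scale. In 26.9% of genes the CPM of the 8 libraries at one temperature did not overlap those at the other, and 6675 of the called genes had the same sign at all 4 times. The contrast within each time called 1901 higher and 1553 lower genes at 5 min (16.1% and 13.2%), 2735 and 2529 at 10 min (23.2% and 21.5%), 2562 and 2342 at 15 min (21.7% and 19.9%), and 2114 and 2076 at 30 min (17.9% and 17.6%). After every library was thinned to the same depth, 5179 of 8669 genes were called, and 5109 of them were also called at full depth, 0 with the opposite sign. Without the second 37 °C libraries of 10, 15 and 30 min, 6224 of 10466 were called (3104 higher and 3120 lower). The Rn45s share moved with temperature and its part in these differences was not tested.

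The share of genes that rose or fell followed their GC content. Of the 933 tested genes with 38% to 42% GC, 71.6% rose and 2.36% fell, with a median log2 fold change of 0.60. In the range of 46% to 50% the shares were 40.3% and 17.9% (2424 genes, median 0.14), and in the next range, 50% to 54%, they turned to 20.2% and 38.5% (2535 genes, median -0.14). Genes of 58% to 62% GC rose in 8.15% and fell in 58.3% (1178 genes, median -0.43). The order did not continue to the end of the scale: in the 258 genes of 62% GC or more, 18.2% rose and 40.3% fell, the median was -0.19, and it went from 0.07 at 5 min to -0.46 at 30 min. Across genes, which are not independent replicates and share these libraries, Spearman's rho between the log2 fold change and GC content was -0.33 at 5 min, -0.53 at 10 min, -0.52 at 15 min and -0.61 at 30 min.

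**Figure D2:**
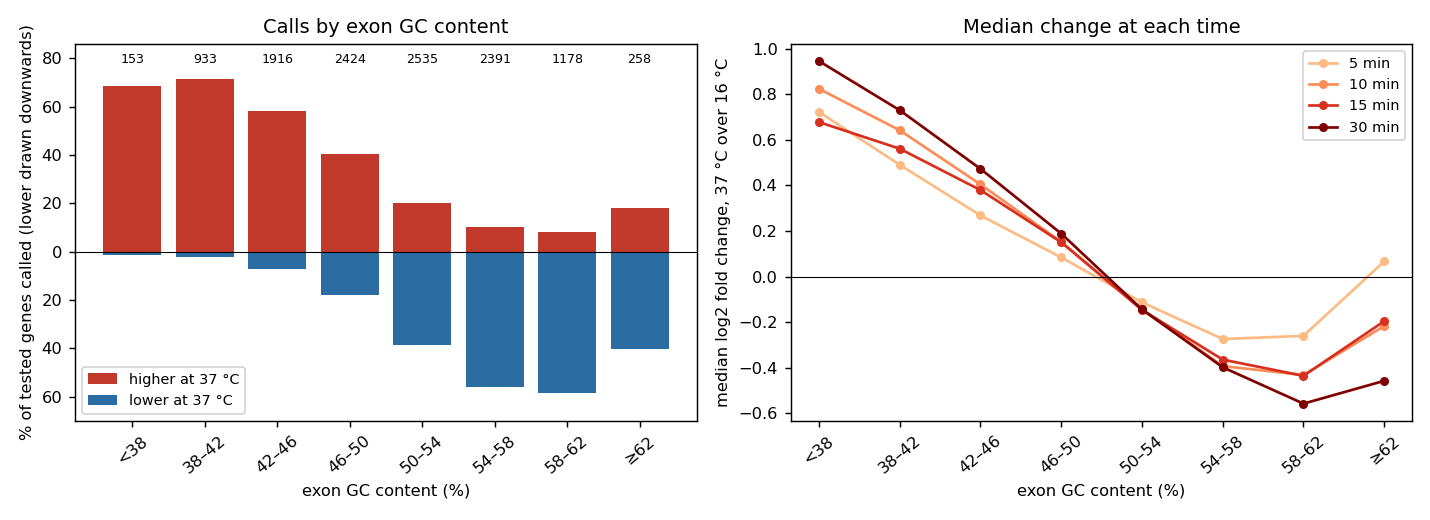
Genes tested are grouped by exon GC content (x axis, percent), with bars for the percentage of genes called higher (upwards) or lower (downwards) at 37 °C, numbers of genes above them, and lines for the median log2 fold change at each reaction time. The share that rose went from 71.6% in genes of 38% to 42% GC to 8.15% in genes of 58% to 62%.

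The genes in no class with the largest changes lay on both sides of this scale. Ssb, with 38.1% GC over its exons, had 41.5 to 93.6 CPM at 16 °C (median 68.5) and 310 to 554 CPM at 37 °C (median 369), a log2 fold change of 2.52 ± 0.12 (SE, n = 8 libraries each, edgeR adjusted p = 1.99e-16). Marcks, a substrate of protein kinase C that binds actin and membrane, had 14.4 to 48.0 CPM at 16 °C and 90.2 to 148 CPM at 37 °C (log2 fold change 2.41 ± 0.11). Mnd1, a meiotic recombination factor, and 2010204K13Rik rose by 2.43 and 2.21. In each of these genes the libraries of the 2 temperatures did not overlap.

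Btbd2, with 61.6% GC, had 295 to 504 CPM at 16 °C (median 387) and 87.9 to 138 CPM at 37 °C (median 121), a log2 fold change of -1.71 ± 0.08 (edgeR adjusted p = 7.31e-16). Ephb3, an ephrin receptor, and Xrcc3, a DNA repair gene, had 59.0% and 57.1% GC and log2 fold changes of -1.60 and -1.77. Ubb-ps, a ubiquitin pseudogene that can share reads with its parent gene, had -1.73. Groups did not overlap for Btbd2, Ephb3, Xrcc3 or Ubb-ps.

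Genes often used as internal standards were not level. Actb (beta actin) had 1480 to 1772 CPM at 16 °C and 1075 to 1278 CPM at 37 °C, without overlap, and a log2 fold change of -0.52 ± 0.05 (edgeR adjusted p = 1.63e-09). Tubb5, a beta tubulin, had -0.18 ± 0.07 (adjusted p = 0.0229), with overlapping ranges. Gapdh, a glycolytic enzyme with many near-identical copies, had medians of only 6.70 and 5.05 CPM, so its value of -0.58 ± 0.22 (adjusted p = 0.0246) rests on few counts and is uncertain. Without the second 37 °C libraries of 10, 15 and 30 min, neither Gapdh (-0.26) nor Tubb5 (-0.11) passed the test.

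Short and very long genes rose more often than they fell. Genes of 200 to 500 bases rose in 55.1% and fell in 14.1% (78 genes, median log2 fold change 0.45), and their median GC content of 53.9% lay in a range where more genes fell than rose. Genes of 1000 to 2000 bases rose in 27% and fell in 36.5% (2448 genes, median -0.09, GC 53.3%), and genes of at least 8000 bases rose in 45.3% and fell in 17.3% (655 genes, median 0.21, GC 47.0%). Length itself correlated weakly with the log2 fold change across genes (rho 0.075), and more with GC content (rho -0.27), so both were read together.

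Within each GC range the genes under 1000 bases had the highest median. In the range of 50% to 54% GC the median log2 fold change was 0.19 for 193 genes under 1000 bases, -0.12 from 1000 to 2000 bases, -0.19 from 2000 to 4000 and -0.15 above. At 58% GC or more it was 0.06 for 133 genes under 1000 bases and -0.34, -0.48 and -0.46 for the longer ranges. Below 42% GC it was 0.87, 0.65, 0.62 and 0.60. In these 3 ranges most of the difference lay between genes under 1000 bases and the next length range.

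**Figure D3:**
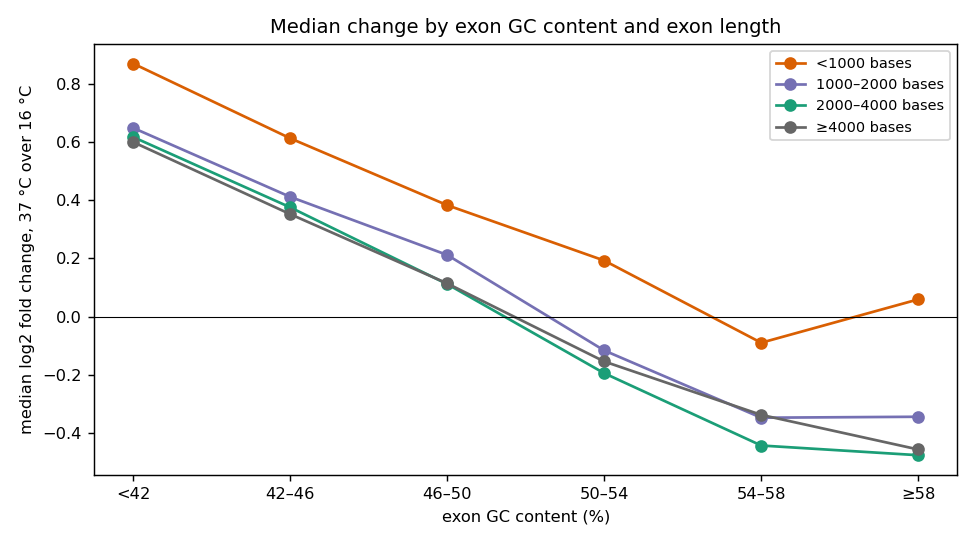
The median log2 fold change of tested genes (37 °C over 16 °C, y axis) is drawn against exon GC content (percent, x axis), with 1 line for each range of exon length. The top value was 0.87, in 32 genes under 1000 bases with under 42% GC, and the bottom value -0.48, in 564 genes of 2000 to 4000 bases with at least 58% GC.

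Genes with a single exon block, which have no introns in the annotation, rose more often than they fell. Of 310 such genes, 41% rose and 15.5% fell, with a median log2 fold change of 0.31, against 31.74% and 31.84% of the 11478 genes with 2 or more blocks (median -0.01). The difference was as large without short genes and without histone genes. Among the 234 single-block genes of at least 1000 bases, 92 rose and 38 fell (median 0.30), and among the 291 that encode no histone, 117 rose and 47 fell (median 0.30). The median of single-block genes was 0.49 at 5 min, 0.30 at 10 min, 0.29 at 15 min and 0.19 at 30 min.

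Cytosolic ribosomal protein genes, which encode the protein subunits of the ribosome and are among the shortest and most abundant mRNAs, were mostly higher at 37 °C. Of the 79 in the files, 76 passed the filter on low counts, and 48 rose (63.2%) and 11 fell (14.5%), against 32% and 31.4% of all genes tested. The median log2 fold change was 0.55, against -0.0037 over all genes tested. Large subunit (27 rose and 3 fell of 44) and small subunit genes (20 and 7 of 30) had medians of 0.55 and 0.56. Their summed share of counts was 6.87% to 8.65% at 16 °C (median 7.92%) and 8.27% to 9.14% at 37 °C (median 8.95%), with overlap, and 1.5% to 1.54% in the ligation-based libraries. Without the second 37 °C libraries, 46 rose and 8 fell of 74 (median 0.56).

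The shift of these genes did not follow GC content. In the ranges below 46%, from 46% to 50%, from 50% to 54% and from 54% upwards, their medians were 0.54, 0.57, 0.46 and 0.46 (7, 17, 26 and 26 genes), where all tested genes had 0.46, 0.14, -0.14 and -0.37. After a GC correction, in which a smooth curve of each library's values on GC content was taken out, 51 rose and 7 fell with a median of 0.63. Many of these genes have processed copies elsewhere in the genome, and reads that match several places were not counted, so the level of a single member is uncertain.

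Members ranged widely. Rpl39 had 40.2 to 110 CPM at 16 °C (median 49.1) and 208 to 453 CPM at 37 °C (median 345), a log2 fold change of 2.61 ± 0.16 (edgeR adjusted p = 2.96e-14), and its groups did not overlap. Among members described after their values were seen, Rpl4, a large subunit protein, had 2599 to 3344 CPM and 5782 to 7584 CPM (log2 fold change 1.27 ± 0.05). Rpl22 had 370 to 468 CPM and 1009 to 1722 CPM (1.78 ± 0.06). Both were thus clear of overlap at high counts.

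Of the 11 members that fell, 7 belong to the small subunit. Rps3, the member with the highest mean CPM, had 7724 to 9281 CPM at 16 °C and 5781 to 6741 CPM at 37 °C (log2 fold change -0.40 ± 0.05, edgeR adjusted p = 2.53e-07). Rpsa, the laminin receptor protein of the small subunit, had 5519 to 8044 CPM and 2493 to 4241 CPM (-1.06 ± 0.10), and Rps2 had 1674 to 2735 CPM and 759.9 to 1322 CPM (-1.04 ± 0.10); both were chosen after their values were seen. These 3 genes did not overlap between temperatures. Rps13 had the lowest value, -1.33 ± 0.25, but only 4.59 to 46.5 CPM at 16 °C and 4.00 to 6.68 CPM at 37 °C, and the groups overlapped.

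Paralogs of ribosomal proteins (10 tested) rose in 5 cases (50%) and fell in 2 (20%), with a median of 0.13. Rpl22l1, a paralog of Rpl22, had 18.6 to 47.0 CPM at 16 °C and 98.0 to 210 CPM at 37 °C (log2 fold change 2.57 ± 0.16). Rps6kl1, which the name pattern includes although it encodes a kinase-like protein, had -0.93 ± 0.15.

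**Figure D4:**
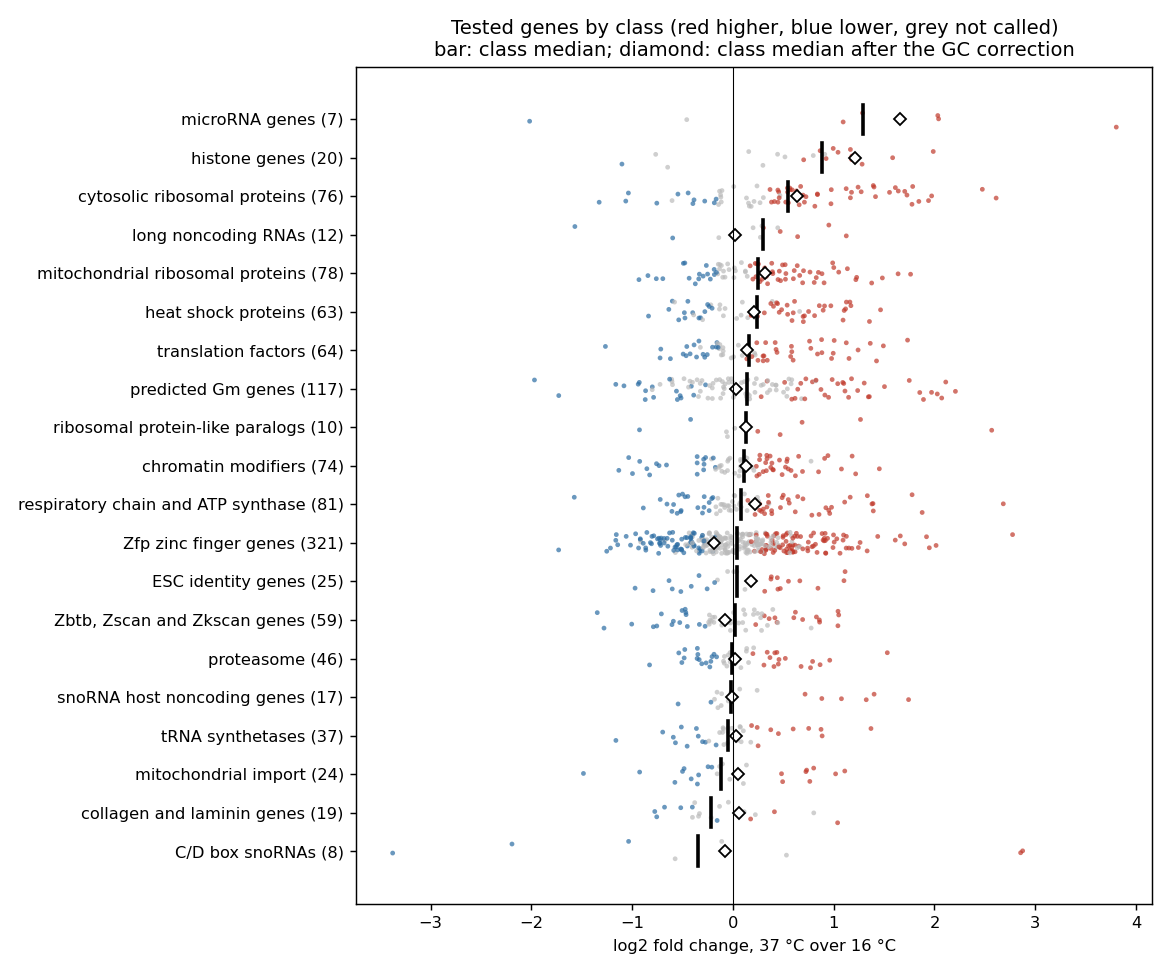
Points are the log2 fold changes (37 °C against 16 °C, x axis) of the tested members of each gene class (y axis, number tested in brackets), in red for higher, blue for lower and grey for not called, with a bar at the class median and a diamond at the median after the GC correction. Histone genes (median 0.89) and cytosolic ribosomal proteins (0.55) lay to the right of 0, while Zfp zinc finger genes (0.04) spread to both sides.

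Nuclear genes of mitochondrial function were mixed. The files hold no gene of the mitochondrial chromosome, so these values concern proteins that are made in the cytosol and imported. Of 78 mitochondrial ribosomal protein genes, all tested, 43 rose and 17 fell (median 0.25), and of 81 tested of 89 respiratory chain and ATP synthase genes, 35 rose and 21 fell (median 0.08). Import machinery genes (24 tested of 26) rose in 8 and fell in 10 cases (median -0.12, which became 0.05 when GC content was corrected for). Without the second 37 °C libraries, respiratory genes rose in 34 and fell in 26 of 79 (median 0.03). The summed share of counts of respiratory genes went the other way in its median. It was 2.24% to 2.38% at 16 °C (median 2.33%) and 2.05% to 2.40% at 37 °C (median 2.22%), with overlap. In the order mitochondrial ribosomal, respiratory and import genes, 55.1%, 43.2% and 33.3% rose and 21.8%, 25.9% and 41.7% fell. All tested genes had 32% and 31.4%. Unlike the cytosolic ribosomal proteins these classes had falling medians along GC content: mitochondrial ribosomal proteins had 0.63, 0.52, 0.23 and -0.01 and respiratory genes 0.50, 0.39, 0.08 and -0.15 in the same 4 ranges.

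Within these classes Mrpl52 had 29.3 to 61.8 CPM at 16 °C (median 39.1) and 96.9 to 152 CPM at 37 °C (median 133), a log2 fold change of 1.76 ± 0.08 (edgeR adjusted p = 2.48e-16), although its exons held 56.6% GC. Uqcr11 had 400.5 to 535 CPM at 16 °C (median 454) and 105 to 198 CPM at 37 °C (median 154), with -1.57 ± 0.09. The groups did not overlap for either gene. Atp5b, the catalytic beta subunit of ATP synthase, had 2623 to 2712 CPM and 2320 to 2703 CPM and did not pass the test (-0.04 ± 0.05, edgeR adjusted p = 0.518). Timm10, a small chaperone of the intermembrane space, fell from 34.8 to 47.5 CPM to 9.89 to 17.9 CPM (-1.48 ± 0.10), whereas Timm23, the inner membrane channel, had only 2.04 to 3.6 CPM and 3.71 to 10.8 CPM (1.11 ± 0.22).

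Of the classes that handle protein synthesis and turnover, translation factors rose in 32 and fell in 18 of 64 (median 0.16), heat shock proteins in 32 and 14 of 63 (0.24). Proteasome genes rose in 16 and fell in 16 of 46 (-0.01), and tRNA synthetases in 10 and 11 of 37 (-0.05). The name patterns also took in regulators of translation, such as Eif2ak1, Eef2k and Eif4ebp1, and proteasome assembly factors and an inhibitor, such as Psmg1 and Psmf1. Proteasome genes (34.8% and 34.8%) and tRNA synthetases (27% and 29.7%) lay near the 32% and 31.4% of all tested genes. The tRNA synthetases took 0.788% to 0.843% of counts at 16 °C and 0.835% to 0.935% at 37 °C, with overlap. Translation factors had 50% and 28.1%, and heat shock proteins 50.8% and 22.2%. Eif1ax, which helps select the start codon, had 35.4 to 60.2 CPM at 16 °C and 114 to 209 CPM at 37 °C (log2 fold change 1.73 ± 0.10). Lars2, the mitochondrial leucyl-tRNA synthetase, had 595 to 978 CPM and 1613 to 2340 CPM (1.37 ± 0.05), and Farsa, a phenylalanyl-tRNA synthetase subunit, had 140 to 229 CPM and 63.9 to 93.3 CPM (-1.16 ± 0.09). These 3 genes did not overlap between temperatures.

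Psmc6, an ATPase of the proteasome cap, had 60.2 to 101 CPM at 16 °C and 193 to 275 CPM at 37 °C (1.53 ± 0.09), and Psmb4, a core subunit, had 335 to 405 CPM and 216 to 291 CPM (-0.54 ± 0.06). Dnajc2, a ribosome-bound chaperone, rose by 1.47 ± 0.06. Hsp90ab1, the chaperone with the highest mean CPM, had 13808 to 14922 CPM and 12933 to 14235 CPM and did not pass (-0.08 ± 0.05, edgeR adjusted p = 0.159), and Eef1a1, the elongation factor that brings tRNA to the ribosome, had 0.32 ± 0.07 (0.13 and not called with the GC correction). Chromatin modifiers rose in 32 (43.2%) and fell in 18 (24.3%) of 74 cases (median 0.11), against 32% and 31.4% of all tested genes. They took 0.915% to 0.975% of counts at 16 °C and 1.03% to 1.07% at 37 °C, without overlap. Chd4, the remodeling ATPase of the NuRD complex, had 646 to 872 CPM and 1039 to 1198 CPM (0.58 ± 0.05), and Hdac7, a histone deacetylase, had 42.1 to 55.6 CPM and 18.8 to 25.6 CPM (-1.13 ± 0.09).

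Zinc finger genes named Zfp, most of which encode DNA-binding proteins of the C2H2 type, were called in both directions. Of the 395 in the files 321 were tested, and 93 rose (29.0%) and 73 fell (22.7%), below the shares of all tested genes in both directions, with a median log2 fold change of 0.04. Their median GC content was 44.8%, and within the ranges below 46%, 46% to 50%, 50% to 54% and above they had medians of 0.33, -0.07, -0.31 and -0.39 (180, 43, 39 and 59 genes). In the fit with the GC correction, 42 rose (13.1%) and 113 fell (35.2%) and the median was -0.19, where the same correction gave 28.4% and 27.5% over all tested genes. Their summed share of counts was 0.828% to 0.943% at 16 °C, 0.861% to 0.973% at 37 °C and 1.5% to 1.54% in the ligation-based libraries.

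Zfp106, the member with the highest mean CPM, had 375 to 414 CPM at 16 °C and 392.2 to 444 CPM at 37 °C and did not pass (0.10 ± 0.05, edgeR adjusted p = 0.0905). Zfp987, with 35.2% GC, had 0.291 to 1.93 CPM and 3.77 to 17.5 CPM (2.77 ± 0.31), at counts too low for a firm size. It passed the filter only through its counts at 37 °C, so its call does not support a rise. Genes of the related Zbtb, Zscan and Zkscan families rose in 14 (23.7%) and fell in 16 (27.1%) of 59 cases (median 0.02, and -0.08 with the GC correction), while their share of counts was 0.151% to 0.155% at 16 °C and 0.133% to 0.143% at 37 °C, without overlap. Zbtb10, a transcriptional repressor, had 37.4 to 46.7 CPM and 75.8 to 109 CPM (1.05 ± 0.07), and Zscan10, an ESC transcription factor, had 194 to 270 CPM and 128 to 191 CPM (-0.47 ± 0.07, but -0.08 and not called with the GC correction). The ranges did not overlap in Zbtb10 or Zscan10.

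Among genes that passed the filter, histone genes had the highest median of the classes with at least 10 tested members. Of 65 in the files, 20 were tested and 10 had no counts at all, and 11 rose (55%) and 1 fell (5%) (median log2 fold change 0.89), with a median GC content of 60.8% at which other genes mostly fell. Without a filter 55 were tested, of which 11 rose and 2 fell, and the median was 0.47, against 0.48 for cytosolic ribosomal proteins. Most are replication-dependent genes that have no introns and whose mRNA ends in a stem-loop in place of a poly(A) tail. Linker histone H1 genes rose in 4 of 5 cases (median 1.17), and core histone genes rose in 7 and fell in 1 of 15 (median 0.80). Without the second 37 °C libraries 10 genes were tested, of which 7 rose and 1 fell (median 1.04), and with the GC correction 15 rose and 1 fell of 20 (1.21). The median of the class was 1.38, 0.97, 0.68 and 0.14 at 5, 10, 15 and 30 min, and that of the core histone genes was 0.005 at 30 min.

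H2ac8, an H2A gene with the highest mean CPM of the class, had 59.8 to 289 CPM at 16 °C (median 123) and 249 to 404 CPM at 37 °C (median 320), with overlap only through the libraries of 30 min at 16 °C (log2 fold change 1.28 ± 0.16, edgeR adjusted p = 7.38e-08). H1f5 and H1f4, linker histone genes chosen after their values were seen, had 13.6 to 40.8 CPM against 34.8 to 65.1 CPM (1.17 ± 0.12) and 6.86 to 15.0 CPM against 17.4 to 28.4 CPM (1.18 ± 0.12). H4c14, an H4 gene, went the other way, from 8.24 to 17.99 CPM at 16 °C to 4.54 to 7.03 CPM at 37 °C (-1.10 ± 0.16). Groups were apart for H1f4 and H4c14 and overlapped for H1f5.

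Small RNA genes were mostly out of reach of these libraries. Only 8 of 69 C/D box small nucleolar RNA (snoRNA) genes, 3 of 36 H/ACA box snoRNA genes, 0 of 9 small Cajal body RNA genes and 7 of 1170 microRNA genes passed the filter, and 879 microRNA genes had no counts. C/D box snoRNAs guide methylation of ribosomal RNA and are released from introns of host genes, and 2 rose (25%) and 3 fell (37.5%) of the 8 (median -0.34, a sign that changed with the filter and with single libraries). Without the second 37 °C libraries 3 were tested, of which 0 rose and 2 fell (median -1.08). With all libraries, Snord22 and Snord49b passed the filter only through their counts at 37 °C, and Snord33 through those at 16 °C. The calls of these genes do not support a direction of the class. A fragment in an intron can come from the snoRNA or from the unspliced host, and these cannot be told apart here. Counts were not split by strand.

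Of the snoRNA genes whose values differed from those of their hosts, 3 are printed in their own direction, from NCBIM37, with the first C box letters TGATGA and the last D box letters CTGA in capitals. On the gene's own strand TGATGA occurred in 33.3% and CTGA in 100% of the 69 C/D box genes, and the letters alone do not define a box. Snord22 (chr19:8800356-8800481, plus strand) holds no TGATGA.
Snord22: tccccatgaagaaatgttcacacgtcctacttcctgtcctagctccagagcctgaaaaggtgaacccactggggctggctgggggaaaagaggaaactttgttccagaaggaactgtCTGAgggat
Snord96a: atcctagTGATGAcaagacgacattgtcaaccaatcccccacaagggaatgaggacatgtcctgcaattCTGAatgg
Snord33: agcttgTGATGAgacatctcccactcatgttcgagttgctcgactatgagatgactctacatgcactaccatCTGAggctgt

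Snord22, in an intron of Snhg1, had 0.310 to 1.02 CPM at 16 °C and 0.666 to 6.54 CPM at 37 °C (log2 fold change 2.88 ± 0.33, edgeR adjusted p = 1.57e-08), and its host Snhg1 had 54.6 to 99.4 CPM and 112 to 168 CPM (0.88 ± 0.09). Snord96a (chr11:48615535-48615611, plus strand), in an intron of Rack1, had 4.80 to 13.9 CPM and 1.27 to 3.34 CPM (-2.19 ± 0.27), and Rack1, a ribosome-bound scaffold, did not pass (-0.12 ± 0.07, edgeR adjusted p = 0.132). Snord33 (chr7:52382234-52382315, minus strand), in an intron of Rpl13a and chosen after its values were seen, had a median of 1.55 CPM at 16 °C and of 0 at 37 °C. Snord96a did not overlap between temperatures, Snord22 and Snord33 did, and all 3 rest on few counts. Snord22 passed the filter only through its counts at 37 °C, so its p-value does not support a rise. Snord33 passed it through its counts at 16 °C, so its call does not support a fall. Snord104, the C/D member with the highest mean, had 6.63 to 14.7 CPM and 5.33 to 16.7 CPM and did not pass (-0.11 ± 0.18, edgeR adjusted p = 0.605).

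Of the 7 tested microRNA genes 5 rose (71.4%) and 1 fell (14.3%) (median log2 fold change 1.29), whereas without a filter the median over 291 genes was -0.68. A fragment counted at such a gene can lie in the precursor or in a longer transcript, and the mature RNA of about 20 bases is not what these libraries capture. The mature sequences of the 6 tested genes whose sequences are shown come from RefSeq (GRCm38.p6), with the seed, bases 2 to 8, in capitals, to show that no 2 of them share a seed.
mmu-miR-6236: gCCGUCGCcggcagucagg
mmu-miR-682: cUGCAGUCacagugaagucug
mmu-miR-692: aUCUCUUUgagcgccucacuc
mmu-miR-703: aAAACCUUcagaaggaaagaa
mmu-miR-1191a: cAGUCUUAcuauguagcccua
mmu-miR-6385: gCAAGGAUgacagagaggaag

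Mir6236 (chr9:110183791-110183913, plus strand) had 198 to 2560 CPM at 16 °C (median 1087) and 1956 to 10639 CPM at 37 °C (median 2076), a log2 fold change of 2.04 ± 0.36 (edgeR adjusted p = 1.49e-05). Its 3 highest values were those of the second libraries of 10, 15 and 30 min at 37 °C, and without them the log2 fold change was 0.97. The summed share of microRNA genes, 0.0427% to 0.302% of counts at 16 °C and 0.265% to 1.11% at 37 °C, includes this gene. In the 37 °C libraries other than these 3 the share was 0.265% to 0.287%, within the range at 16 °C. Mir682 (chr13:75782494-75782589, plus strand), chosen after its values were seen, had 171 to 525 CPM and 629 to 866 CPM, without overlap (1.29 ± 0.11, edgeR adjusted p = 3.29e-11). The difference of Mir682 went from 2.00 at 5 min to 0.70 at 30 min on the log2 scale (edgeR interaction adjusted p = 0.000889). Mir703, which is counted among the rises, passed the filter only through its counts at 37 °C, so its call does not support a rise. It had a median of 0 CPM at 16 °C and 1.91 CPM at 37 °C. Mir1191 had medians of 4.62 and 0.831 CPM, and both genes had too few counts for a firm size.

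Spliced noncoding host genes of snoRNAs rose in 6 and fell in 2 of 17 cases (median -0.02), and the other long noncoding RNA genes in 5 and 2 of 12 (median 0.30). The shares were 35.3% and 11.8% for the hosts and 41.7% and 16.7% for the others, against 32% and 31.4% of all tested genes. With the GC correction the other long noncoding RNA genes rose in 1 and fell in 3 cases (median 0.02), and their summed share of counts went the other way, from 0.0763% to 0.126% at 16 °C (median 0.104%) to 0.0610% to 0.0906% at 37 °C (median 0.0678%). Without the second 37 °C libraries they rose in 3 and fell in 3 of 9 (median 0.30). Gas5, a snoRNA host, had 25.5 to 53.2 CPM at 16 °C and 57.9 to 196 CPM at 37 °C without overlap (log2 fold change 1.74 ± 0.22), and 0.92 without the second 37 °C libraries. Lncenc1, an RNA enriched in naive ESC, had 470 to 830 CPM and 208 to 275 CPM, also without overlap (-1.57 ± 0.07, edgeR adjusted p = 2.02e-16). Genes named Gm, for predicted genes, rose in 34 (29.1%) and fell in 18 (15.4%) of 117 tested of 1532, with a median of 0.14, which became 0.03 with the GC correction (24 rose and 28 fell) and -0.29 over the 909 genes tested without a filter.

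Genes of ESC identity were split, with 11 higher (44%) and 9 lower (36%) of 25 (median 0.04), against 32% and 31.4% of all tested genes. Nanog and Pou5f1, transcription factors of pluripotency, had 276 to 643 CPM at 16 °C against 244 to 320 CPM at 37 °C (log2 fold change -0.63 ± 0.08) and 288 to 366 CPM against 166 to 242 CPM (-0.60 ± 0.06). L1td1, an RNA-binding protein of ESC, had 225 to 283 CPM and 512 to 608 CPM (1.11 ± 0.05, edgeR adjusted p = 7.31e-16), and Nr0b1, a nuclear receptor that binds Pou5f1, had 85.8 to 103 CPM and 44.5 to 51.2 CPM (-0.97 ± 0.06). Sox2 had 306 to 590 CPM and 413 to 479 CPM and did not pass (0.04 ± 0.08, edgeR adjusted p = 0.694). Nanog, Pou5f1 and Sox2 were chosen after their values were seen, and only Nanog and Sox2 of these 5 genes overlapped between temperatures. Collagen and laminin genes rose in 3 (15.8%) and fell in 6 (31.6%) of 19 tested of 55 (median -0.22, or 0.06 with the GC correction), and of the primitive endoderm and fibroblast genes in the class lists 4 and 1 were tested, of which 1 fell and 0 rose.

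The temperature difference depended on reaction time in 111 genes (0.942% of those tested, edgeR interaction test, and 1085 at an unadjusted p below 0.05). In 108 of them the level changed more from 5 to 30 min at 16 °C than at 37 °C, with a median absolute change of 0.93 against 0.12 on the log2(CPM + 1) scale. At 16 °C 88 of the 111 were higher at 30 min than at 5 min. The difference between temperatures was smaller in size at 30 min than at 5 min in 89. Of the 111, 65 (58.6%) had a GC content of at least 54%, against 32.5% of all tested genes. They included 11 cytosolic ribosomal protein genes, H2ac8 and 6 ESC identity genes (Nanog, Sox2, Klf2, Klf5, Utf1 and Tbx3). The 111 genes had a median of 225 CPM, against 28.4 CPM over all tested genes, and genes of more counts are easier to call. Whether their GC content and classes reflect these higher counts was not tested.

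Rpl19, a large subunit protein described after its values were seen, had 63.6 and 81.6 CPM in the 2 libraries of 5 min at 16 °C, 98.2 and 106 at 10 min, 151 and 181 at 15 min and 255 and 345 at 30 min. At 37 °C its 8 libraries lay between 451 and 520 CPM, so every library at 16 °C was below every one at 37 °C while the gap narrowed with time. Its log2 fold change was 2.68, 2.27, 1.53 and 0.67 at 5, 10, 15 and 30 min (edgeR interaction adjusted p = 4.72e-06). Rpl36 followed the same course, with means of 164, 255, 317 and 617 CPM at 16 °C and 843, 778, 788 and 828 CPM at 37 °C. H2ac8 had means of 59.96, 116, 138 and 271 CPM at 16 °C and 320, 300, 318 and 340 CPM at 37 °C, with log2 fold changes from 2.42 to 0.30 (adjusted p = 0.000365).

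Pcbp2, a poly(C)-binding protein, showed the mirror course, with means of 1232, 1017, 811 and 654 CPM at 16 °C and 525, 567, 598 and 623 CPM at 37 °C (log2 fold change -1.23 at 5 min and -0.07 at 30 min, edgeR interaction adjusted p = 0.00132). Nanog fell likewise at 16 °C, from 643 and 639 CPM at 5 min to 304 and 276 CPM at 30 min, while its 8 libraries at 37 °C lay between 244 and 320 CPM. In Rps15 the sign turned, from 0.80 at 5 min to -0.43 at 30 min (adjusted p = 7.9e-05). Pcbp2 and Rps15 were also chosen after their values were seen.

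The count of time-dependent genes moved with single times and libraries. It was 7 without the 5 min libraries and 20 without the second 37 °C libraries, both tried after the data were seen, and leaving out 1 library at 16 °C gave 38 or 37 (5 min, first or second library), 187 or 181 (15 min) and 43 or 18 (30 min), and at 37 °C 41 (5 min, first library) and 73 or 19 (30 min, first or second). Without any 1 of the other 7 libraries it was 89 to 126.

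**Figure D5:**
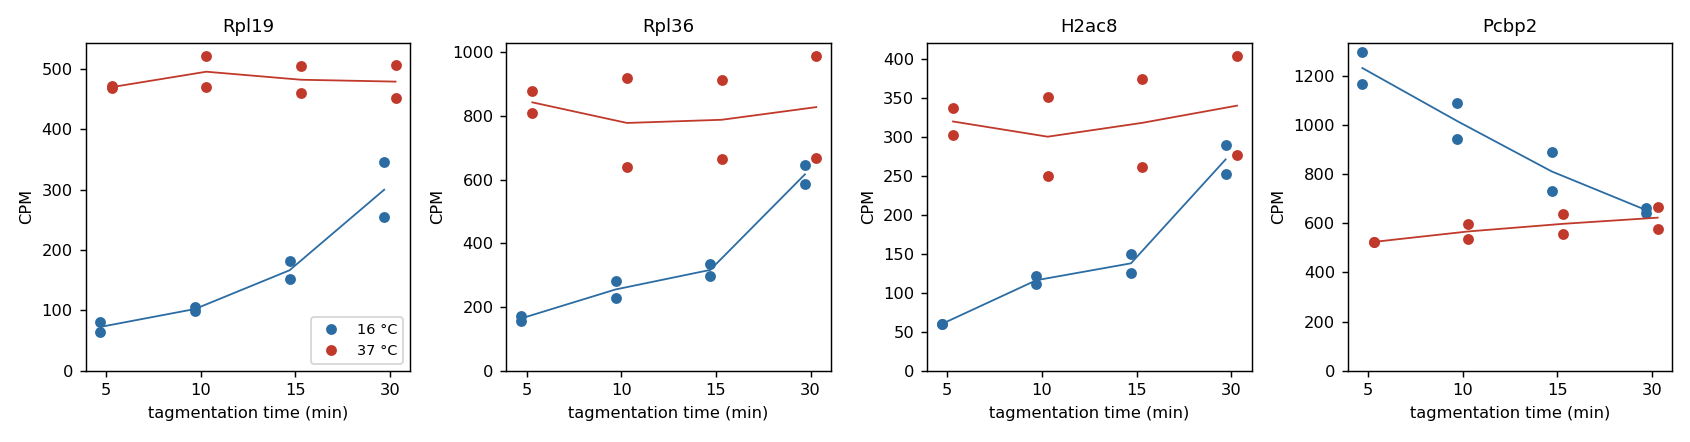
Levels of Rpl19, Rpl36, H2ac8 and Pcbp2 (CPM, y axes) are plotted against reaction time as evenly spaced categories, with 1 point per library, 2 libraries per condition and lines through the means at 16 °C and 37 °C. Rpl19 rose from a mean of 72.6 to 300 CPM at 16 °C and had means between 469 and 495 CPM at 37 °C.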

How the data were processed

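The authors trimmed the paired-end reads of 150 bases with Trim Galore 0.6.4, aligned them with STAR 2.5.4b to mm9 without the mitochondrial chromosome, and counted fragments over refGene exons with featureCounts 2.0.0, without strand and without reads that match several places or genes. They deposited a raw count per gene and library, with the summed exon length. All values were computed from these deposited counts. Groups followed the sample titles, and the libraries of a condition were biologically independent according to the study. It does not say whether the conditions shared an RNA preparation. The gene classes, their members and the tests were chosen with earlier results of these data known, and the name patterns of histone and tRNA synthetase genes were widened after the files were seen.

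Rn45s was removed, and genes were kept by filterByExpr. edgeR 4.0.16 in R 4.3.3 fitted a quasi-likelihood model with time and temperature on TMM-scaled totals, with Benjamini-Hochberg adjustment over all genes tested and a threshold of 0.05. A second model added the interaction. CPM of named genes are on TMM-scaled totals. The test was checked on simulated data. DESeq2 1.42.0, other scalings and filters, thinning to 754239 counts, a loess correction for GC content and leaving out each library were tried as alternatives. Exon GC content was read from NCBIM37, where the bases read equalled the deposited length for 25064 of 25209 genes. A single value per library was tested by exact permutation of the temperature labels within times (scipy 1.17.1). Totals of 1178008 to 15221800 set the precision, which is lowest for genes of few CPM, and intervals between libraries include it.

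Genes were named by rule: in each class with 5 or more tested members the one with the highest mean CPM and the largest consistent rise and fall, the 5 largest consistent rises and falls among genes of at least 10 CPM in no class, 6 reference genes and the hosts of named snoRNAs, where consistent means called and of the same sign at all 4 times. Others are said to be chosen after their values were seen.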

Additional observations from a re-analysis of the deposited data

Results flagged for a closer look

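In 10 of the 144 groups of 8 libraries looked at for the 72 named genes, 1 library lay far from the rest of its group, with a gap to its neighbour that is a large part of the group's range (Dixon's limit for 8 values, which chance passes in about 1 group in 20). At 16 °C the ratios of gap to range were 0.794 for Rpl39, 0.628 for Mrpl52, 0.617 for Zfp128 and 0.683 for Col11a1. At 37 °C they were 0.56 for Mrpl28, 0.625 for Timm23, 0.678 for Zbtb10, 0.622 for Xist, 0.552 for Chd4 and 0.646 for Hmgn5. The median gene length over counts at 37 °C also had such a library, with a ratio of 0.533.

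The temperature difference depended on time by edgeR's interaction test in 3 of the 72 genes named by rule, with adjusted p = 0.00798 for Rps4l, 0.000365 for H2ac8 and 0.0406 for Snhg1. The log2 fold change of Rps4l, a paralog of the ribosomal protein Rps4x, went from 1.02 at 5 min to 0.03 at 30 min.

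Hprt had at least 181 CPM in each of the 2 ligation-based libraries and at most 1.29 CPM in any of the 16 tagmented libraries, though the labels give E14 for all of them (the study's methods name ES-E14TG2a). The cause was not tested.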

How the results depend on the processing

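The count of called genes was 7435 with DESeq2, 7471 with its size factors, 7461 with total counts (45.6% of calls higher, against 50.4%), 7499 with a filter on a mean of 1 CPM and 7429 without a filter, where the median of all genes was -0.14. It was 3367 from the 5 min libraries alone, 4515 from 15 min and 4450 from 30 min, which hold fewer samples, and 7050 to 7534 when 1 library was left out. With the GC correction 6596 genes were called, of which 5064 were among the 7473, 182 of them with the opposite sign. Genes past 1 on the log2 scale were 1046, 554 with the GC correction and 548 with this correction and the replicate block, and 950 to 1192 when 1 library was left out.

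Genes whose difference depended on time were 111, 199 by DESeq2's likelihood ratio test, 187 with the replicate block, 61 after thinning, 186 with the GC correction, 7 without the 5 min libraries and 20 without the second 37 °C libraries of 10, 15 and 30 min (the last 2 chosen after seeing the data), and 18 to 187 when 1 library was left out. The replicate numbers did not meet the rule for pairing, a correlation over 0.1 in every pair of conditions: deviations of same-numbered libraries correlated between -0.056 and 0.33 over 28 pairs, and the 5 over 0.1 were among 5, 10 and 15 min at 16 °C and between 10 or 15 min at 16 °C and 5 min at 37 °C. With the block 7467 genes were called (3779 higher and 3688 lower).

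The weighted GC difference was -1.26 to -1.09 points when 1 library was left out and 1.835 with Rn45s kept. The length difference was 32.6 to 46.6 bases. The difference in genes detected was -101.5 to -55.2 when 1 library was left out, -88.38 with at least 5 counts (exact permutation p = 0.00309) and -489.2 thinned with Rn45s kept (p = 0.00154), so whether it passes depends on these choices.

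Signs of class medians changed for C/D box snoRNAs (0.20 without a filter, 0.20 with the filter of 1 CPM, 0.29 at 15 min alone, and -0.73 to 0.22 when 1 library was left out, with 0.22, 0.17 and 0.08 without the second library of 10 min, the first of 15 min or the first of 30 min at 16 °C), microRNA genes (-0.68 without a filter), Gm genes (-0.29 without a filter), mitochondrial import (0.05 with the GC correction, 0.05 with the block added, 0.03 at 30 min alone), collagen and laminin genes (0.06 and 0.08 with the GC correction without and with the block) and ribosomal protein paralogs (-0.15 at 5 min alone). Medians near 0 also changed sign, in 13 of 32 alternatives for Zbtb, Zscan and Zkscan genes (-0.21 to 0.09), 5 for Zfp genes (-0.19 to 0.14), 5 for the proteasome (-0.08 to 0.1), 4 for snoRNA hosts (-0.09 to 0.2), 4 for ESC identity genes (-0.05 to 0.22) and 3 for tRNA synthetases (-0.11 to 0.1). Of smaller classes, H/ACA box snoRNAs (0.07) and primitive endoderm genes (0.21) did so with the GC correction and fibroblast genes (-0.39) without a filter. Signs of genes changed for Tomm40 (0.05) and Psme4 (-0.01) with the GC correction, with or without the block, and for Gapdh (0.01) and Tubb5 (0.11) at 5 min alone. Also with the GC correction, Eef1a1 (0.13), Zscan10 (-0.08), Xist (0.61), Col13a1 (-0.35), Gapdh (-0.22) and Tubb5 (-0.04) no longer passed. The causes were not tested. The depth of the 5 min libraries at 37 °C, the shallowest, limits what can be said of genes of few CPM.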
